A study of Mus musculus with 6 samples.

Results

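The genes described here were 10 collagen genes of 33696 genes in the feature table, chosen by symbol: Col1a1, Col1a2, Col3a1, Col5a1, Col5a2, Col6a1, Col6a2, Col6a3, Col12a1 and Col14a1. Their UMIs, the tagged mRNA molecules that the sequencing counted, were summed per mouse and per class of cells, and sham mice were compared with DOCA-salt mice. Single cells from the kidneys of 3 sham and 3 DOCA-salt mice were profiled, with 1 library per mouse. All were male C57BL/6 mice, purchased at an age of 8 to 10 weeks, before surgery and treatment. DOCA-salt mice lost the left kidney and, 1 week later, received a pellet of 50 mg deoxycorticosterone acetate (DOCA, a steroid that activates the mineralocorticoid receptor) and 1% NaCl drinking water for 21 days. Sham mice had sham surgery and normal water. The kidney removal was part of the DOCA-salt group only, so its effect and that of DOCA-salt cannot be told apart. Kidneys were cut and digested with collagenase, so cell counts are counts of the cells that this digestion released.

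Collagens are triple helices of 3 chains, and collagen I is built from the chains of Col1a1 and Col1a2. Collagen I and collagen III, whose only chain comes from Col3a1, make up most of the fibrils of interstitial matrix, and collagen V (Col5a1, Col5a2) sits inside these fibrils and sets their start and diameter. Collagen VI (Col6a1, Col6a2, Col6a3) forms beaded microfilaments beside the fibrils. Collagens XII (Col12a1) and XIV (Col14a1) do not form fibrils themselves and bind to the surface of fibrils. In the kidney, fibroblasts and pericytes of the interstitium are known as the main makers of fibrillar collagen, and its build-up is a hallmark of fibrosis. Tubule epithelium rests on a basement membrane of other collagens, chiefly collagen IV.

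In the GRCm39 annotation the members lay on 7 chromosomes. Col1a1 lay at chr11:94827050-94843868, Col1a2 at chr6:4504814-4541555, Col5a1 at chr2:27776397-27929526, Col12a1 at chr9:79506268-79626135 and Col14a1 at chr15:55171140-55384199. Col3a1 (chr1:45350698-45395840) and Col5a2 (chr1:45412554-45542442) were neighbours on opposite strands, and Col6a3 lay at chr1:90693645-90771780. Col6a2 (chr10:76429660-76459549) and Col6a1 (chr10:76543440-76562283) lay near each other on the same strand. Col5a1, Col12a1 and Col14a1 overlapped genes of the opposite strand that the feature table also held. Col1a2, Col3a1, Col5a2 and Col6a3 overlapped genes of the same strand that it did not hold.

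Promoter windows, from 250 bases before to 50 bases after a RefSeq transcript start on GRCm38.p6, were available for 6 of the 10 members. Col1a1, Col5a2, Col12a1 and Col14a1 had no entry. The windows were searched on both strands for CCAAT, the box that NF-Y binds. They were also searched for TATAAA, which the general transcription machinery binds. Col1a2 and Col3a1 are shown because they moved together in the kidneys and were the members whose window held a searched motif, marked in capitals.
Col1a2, chr6:4505368-4505667, plus strand: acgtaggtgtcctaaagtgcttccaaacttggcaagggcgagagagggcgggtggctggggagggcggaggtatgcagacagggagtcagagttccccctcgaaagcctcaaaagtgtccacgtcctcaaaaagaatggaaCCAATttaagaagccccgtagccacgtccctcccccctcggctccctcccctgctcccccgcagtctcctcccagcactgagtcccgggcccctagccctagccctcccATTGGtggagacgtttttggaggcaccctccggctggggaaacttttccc
Col3a1, chr1:45311288-45311587, plus strand: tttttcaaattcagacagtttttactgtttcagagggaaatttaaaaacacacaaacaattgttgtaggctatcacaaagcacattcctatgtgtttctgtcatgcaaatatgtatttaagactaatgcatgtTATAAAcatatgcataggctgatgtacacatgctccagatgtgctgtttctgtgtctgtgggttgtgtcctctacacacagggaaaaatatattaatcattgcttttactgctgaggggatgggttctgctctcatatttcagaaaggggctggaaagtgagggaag
CCAAT stood in 2 places of the Col1a2 window, beginning at base -109 and, on the other strand, at base 0 from the start. TATAAA stood at base -117 of the Col3a1 window. These are common letters. Of all 32851 windows, 37.4% held CCAAT and 13.6% held TATAAA, and no promoter assay was part of the data.

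The 6 libraries held 93172739 to 137819127 UMIs each. After filters and removal of doublets, 55630 of 76774 barcodes remained. Cells were clustered without collagen genes and each cluster was named from markers of known kidney cell types, giving fibroblast-like cells, endothelial-like cells and so on, which are called fibroblasts, endothelial cells and so on from here. Median mitochondrial shares were high, from 22.4% to 32.2% per mouse. Any pair of libraries shared 33 to 69 barcodes, at most 0.525% of a library. Levels are CPM, the UMIs of a gene scaled to the same total of UMIs of the class in each mouse. UMIs came from 3′ ends and were taken not to scale with transcript length, so CPM were also compared between genes. Whether UMIs from introns were counted is not stated here, and such UMIs could grow with gene length. The members ran from 16819 bases (Col1a1) to 213060 bases (Col14a1). The part of gene length in comparisons between genes was not tested.

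In whole kidneys, 9 of the 10 members rose in DOCA-salt mice. The chains of collagens I and III rose most, by 4.34 to 4.58 on the log2 scale. Over all 19658 genes tested, 11.5% were called higher and 5.69% lower at an adjusted p below 0.05 (quasi-likelihood test of edgeR, p-values adjusted across the tested genes by the Benjamini-Hochberg method), with a median log2 fold change of -0.02. All 10 estimates were above 0. In sums over all cells, more cells that make an mRNA and more mRNA per cell cannot be told apart.

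Col1a1, the alpha 1 chain of collagen I, stood at 7.40, 1.57 and 3.75 CPM in the sham mice and at 82.4, 106 and 148 CPM in the DOCA-salt mice. Its partner chain Col1a2 stood at 9.06, 2.66 and 3.79 CPM against 84.2, 121 and 142 CPM. Col3a1 stood at 10.1, 1.87 and 4.59 CPM against 98.0, 118 and 158 CPM. For each of these genes the lowest DOCA-salt mouse was above the highest sham mouse, and sham 1 was the highest sham mouse. The log2 fold changes were 4.58 (SE 0.51, adjusted p = 0.00116) for Col1a1, 4.34 (SE 0.44, adjusted p = 0.000844) for Col1a2 and 4.35 (SE 0.54, adjusted p = 0.00176) for Col3a1. The log2 ratio of Col1a1 to Col1a2 overlapped between the groups in whole kidneys, at -0.36 ± 0.37 in sham and -0.05 ± 0.13 in DOCA-salt mice (mean ± SD, n = 3 each).

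The collagen V chains parted. Col5a1 was among the rarest members, at 0.752, 0.427 and 0.538 CPM in sham and 6.53, 8.65 and 11.3 CPM in DOCA-salt mice, and rose by 3.80 on the log2 scale (SE 0.27, adjusted p = 0.000272). Col5a2 was the most abundant member in sham kidneys on average, at 14.0, 22.3 and 26.1 CPM, and stood at 27.3, 26.9 and 33.3 CPM in DOCA-salt kidneys. Its groups did not overlap, but the log2 difference of 0.37 did not pass the test (SE 0.21, adjusted p = 0.283). At a limit of 20% mitochondrial UMIs per cell it did, with a log2 fold change of 1.64 (SE 0.23, adjusted p = 0.00237). The log2 ratio of Col5a1 to Col5a2, chains of the same trimer, was -5.17 ± 0.83 in sham and -1.76 ± 0.27 in DOCA-salt kidneys (SD, n = 3 each). The exact two-sided permutation p was 0.1, the smallest that 3 against 3 mice allow.

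The collagen VI chains rose together. Col6a1 stood at 2.00, 0.692 and 1.44 CPM in sham and 11.5, 19.4 and 19.8 CPM in DOCA-salt mice, Col6a2 at 0.995, 0.442 and 0.599 against 5.59, 11.01 and 9.96 CPM, and Col6a3 at 0.520, 1.09 and 0.737 against 10.7, 12.1 and 18.5 CPM. Their log2 fold changes were 3.47, 3.55 and 4.03, with adjusted p of 0.000985, 0.000748 and 0.000327. The groups did not overlap for any of the 3 chains.

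Of the collagens on the fibril surface, Col14a1 rose by 3.45 on the log2 scale (SE 0.38, adjusted p = 0.00109), from 3.22, 1.40 and 1.58 CPM to 14.99, 29.0 and 30.8 CPM. Col12a1 rose by 1.96 (SE 0.26, adjusted p = 0.00224), from 7.28, 5.70 and 6.91 CPM to 18.1, 26.5 and 39.8 CPM. Col12a1 was above Col1a1 in sham 2 and sham 3, and below Col1a1 in every DOCA-salt mouse. Together, the 10 members gave 55.3, 38.2 and 50.0 CPM in sham and 359, 478 and 611 CPM in DOCA-salt mice.

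**Figure D1:**
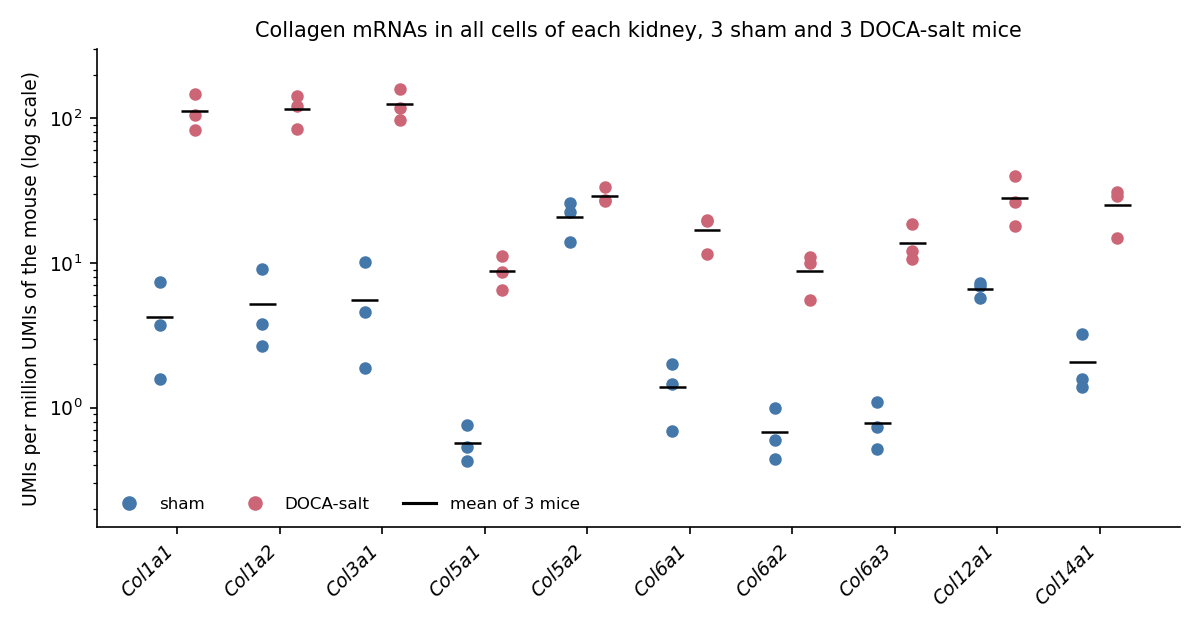
Level of each of the 10 collagen genes in whole kidneys, in CPM on a log axis; each point is a mouse (3 sham, 3 DOCA-salt) and each bar the mean of its group. Col5a2 shows the narrowest gap between the groups, 14.0 to 26.1 against 26.9 to 33.3 CPM, and the chains of collagens I and III the widest gap between the group means.

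The UMIs came from different cells in the groups. In DOCA-salt mice, fibroblasts held 87.9%, 85.0% and 90.0% of the UMIs of the 10 members, against 41.9%, 12.8% and 21.8% in sham mice. Fibroblasts made up 2.45%, 3.09% and 3.17% of the cells in DOCA-salt mice (217, 297 and 306 cells) and 0.223%, 0.0779% and 0.0906% in sham mice (22, 6 and 9 cells). Neither measure overlapped between the groups (exact two-sided permutation p = 0.1 for each, the smallest possible). Both depend on how the cells were named. Of the 5 fibroblast clusters, 4 had no fibroblast marker among their first 10 genes, though at least 10 of the 12 markers were detected in each. With single cells chosen by markers in place of clusters, fibroblasts made up 1.42%, 1.63% and 1.56% of the cells in DOCA-salt mice and 0.213%, 0.0519% and 0.0705% in sham mice. They then held 52.0%, 46.0% and 49.4% of the members' UMIs in DOCA-salt mice against 47.5%, 10.1% and 12.2% in sham mice, with overlap. Smooth muscle cells and pericytes, the other stromal class, which may hold mesangial cells too, made up 0.970% ± 0.214 of sham cells and 0.783% ± 0.0983 of DOCA-salt cells (SD, n = 3 each), and these groups overlapped. Chosen by markers, they were 97, 115 and 111 cells in sham and 133, 144 and 133 cells in DOCA-salt mice, with a mean share of cells that was 0.262 percentage points higher in DOCA-salt mice, also with overlap, and held 4.397%, 10.02% and 6.82% of the members' UMIs in sham and 13.5%, 15.6% and 15.8% in DOCA-salt mice. As named by cluster the class held 4.18%, 7.09% and 5.04% against 1.45%, 0.761% and 1.70%, so the direction of this share turned with the naming, without overlap in either.

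Tubule cells other than the proximal tubule held 22.0%, 51.3% and 45.5% of the members' UMIs in sham and 4.31%, 2.56% and 2.63% in DOCA-salt mice. Cells of clusters without a name held 11.7%, 5.32% and 4.70% in sham and 1.19%, 7.56% and 2.02% in DOCA-salt mice, and 617 of the 625 cells of 1 such cluster came from DOCA-salt 2.

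In sham kidneys the main source differed between members. Fibroblasts held 81.0% ± 4.14 of the Col1a1 UMIs (SD, n = 3), 70.7% ± 12.5 of the Col3a1 UMIs and 29.2% ± 5.16 of the Col14a1 UMIs. The thick ascending limb, a salt-absorbing segment of the loop of Henle, held 70.6%, 74.4% and 71.3% of the Col5a2 UMIs of the 3 sham mice. Endothelial cells held 56.7%, 46.3% and 53.6% of the Col12a1 UMIs, and proximal tubule cells 32.4%, 37.0% and 34.0%. Macrophages held 22.3%, 36.8% and 36.9% of the Col14a1 UMIs, and intercalated cells, the acid-base cells of the collecting duct, 16.8%, 16.8% and 18.4%. Smooth muscle cells and pericytes held 38.3%, 36.5% and 37.5% of the Col6a3 UMIs. Only 17 of 1495 Col12a1 UMIs and 36 of 4477 Col5a2 UMIs of the sham kidneys lay in fibroblasts.

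In DOCA-salt kidneys fibroblasts, as named by cluster, held the largest share of every member. The share was 92.3% ± 3.58 for Col1a1 and 74.2% ± 7.59 for Col12a1 (SD, n = 3), and was lowest for Col5a2, at 44.8%, 56.1% and 61.3%. The thick ascending limb held 29.3%, 15.6% and 19.9% of the Col5a2 UMIs there.

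**Figure D2:**
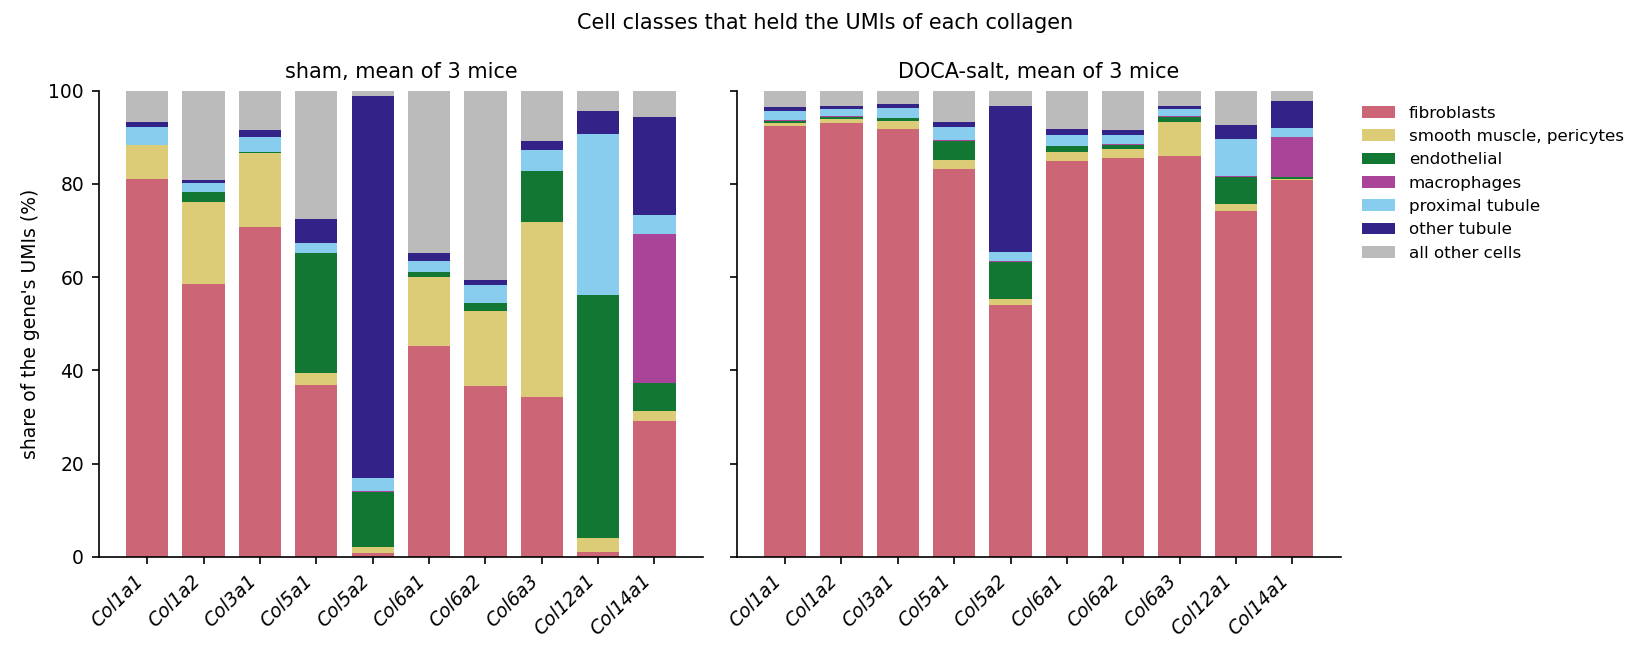
Share of the UMIs of each collagen gene held by each class of cells, in percent (0 to 100), as the mean of 3 sham mice and of 3 DOCA-salt mice. In sham kidneys Col5a2 lies mostly in tubule cells and Col12a1 mostly in endothelial and proximal tubule cells, and in DOCA-salt kidneys fibroblasts hold the largest part of every bar.

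With fibroblasts left out of the sums, 8 members were still called higher in whole kidneys by the edgeR quasi-likelihood test, against 8.59% of 19521 genes higher and 4.07% lower. The levels that remained were low, such as 1.76, 0.265 and 0.615 CPM of Col1a1 in sham and 4.33, 13.04 and 9.65 CPM in DOCA-salt mice. In DOCA-salt 2, 881 of these 1292 Col1a1 UMIs lay in clusters without a name, against 32 of 386 and 168 of 654 in the other DOCA-salt mice. Col12a1 did not pass the test in these sums, at 7.12, 5.67 and 6.92 CPM in sham and 5.99, 7.67 and 7.30 CPM in DOCA-salt mice (log2 fold change -0.01, adjusted p = 0.979). Col5a2 stood at 13.8, 22.3 and 25.9 CPM against 15.5, 12.3 and 13.5 CPM.

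Within the stromal cells, fibroblasts together with smooth muscle cells and pericytes, all 10 members were called higher in DOCA-salt mice, against 14.9% of 11135 genes higher and 13.3% lower (edgeR). Col12a1 showed the largest log2 fold change, 3.62 (SE 0.33, adjusted p = 6.05e-06), and stood at 58.9, 35.7 and 14.1 CPM in sham and 385, 415 and 595 CPM in DOCA-salt mice. Col5a2 followed with 2.72 (SE 0.19, adjusted p = 1.2e-06), from 63.8, 45.05 and 52.2 CPM to 386, 325 and 372 CPM. The other 8 members rose by 1.42 (Col6a1) to 2.34 (Col5a1). Of these stromal cells, fibroblasts were 22 of 98, 6 of 98 and 9 of 103 in the sham mice and 217 of 289, 297 of 380 and 306 of 371 in the DOCA-salt mice. That shift between the classes moved with the result, and its part in it was not tested.

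Within fibroblasts most collagens did not pass the test. Of the 10 members, 2 were called higher, Col12a1 and Col5a2, against 1.63% of 9892 genes higher and 1.53% lower (edgeR). No member was called lower. Col6a1 was the 1 member below an unadjusted p of 0.05 with a negative log2 fold change, at -0.90 (edgeR adjusted p = 0.188), and DESeq2 called it lower (adjusted p = 0.049).

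Col12a1 gave 15, 2 and 0 UMIs in the fibroblasts of the sham mice, or 141, 41.5 and 0 CPM, and stood at 460, 470 and 667 CPM in DOCA-salt mice. The count of 0 in the 9 fibroblasts of sham 3 allows up to 49.4 CPM, or 33.3% of cells with a UMI, by counting error alone. The log2 fold change of Col12a1 was 2.82 (SE 0.50, adjusted p = 0.00278). Col5a2 gave 22, 5 and 9 UMIs in sham fibroblasts, or 207, 104 and 148 CPM, and stood at 459, 371 and 414 CPM in DOCA-salt mice, a log2 fold change of 1.34 (SE 0.35, adjusted p = 0.0385). The groups did not overlap for these genes. Both calls were lost when any of the 3 DOCA-salt mice was left out, and Col5a2 also without sham 1 or sham 3.

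The chains of collagens I and III had high and overlapping levels in fibroblasts. Col1a1 stood at 4792, 1845 and 3360.1 CPM in sham and 2934, 2296 and 2814 CPM in DOCA-salt mice (log2 fold change -0.36, SE 0.39, adjusted p = 0.765). Col1a2 stood at 5412, 1699.6 and 2438 CPM against 3007, 2661 and 2712 CPM, and Col3a1 at 6229.7, 1513 and 4052 CPM against 3449, 2556 and 2986 CPM. The sham mice thus lay on either side of the DOCA-salt mice, with sham 1 highest and sham 2 lowest for each of these genes. Col5a1 stood at 254, 187 and 231 CPM against 201, 174 and 195 CPM. Col6a1 stood at 949, 373 and 642 CPM against 370.1, 384 and 352 CPM, and Col14a1 at 958, 539 and 428 CPM against 446, 586 and 508 CPM. Col6a2 and Col6a3 gave log2 fold changes of -0.70 (adjusted p = 0.375) and 0.19 (adjusted p = 0.849). These p-values do not show equal levels, since the standard errors of the other 8 members ran from 0.29 to 0.44 on the log2 scale.

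**Figure D3:**
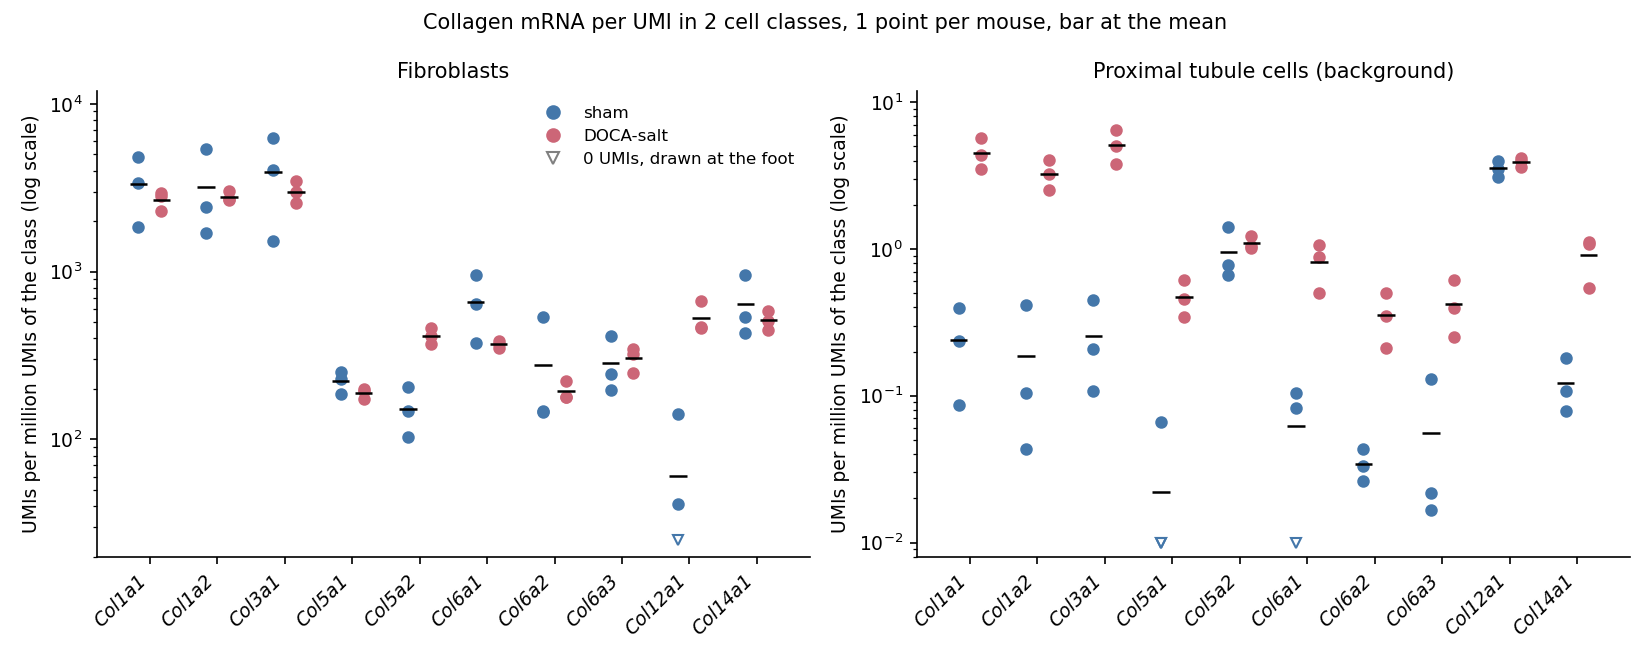
Level of each collagen gene in fibroblasts and in proximal tubule cells, in CPM of the class on log axes; points are mice (3 sham, 3 DOCA-salt), bars are group means, and open triangles at the foot are mice with 0 UMIs. In fibroblasts the groups are apart for Col5a2 and Col12a1 only, and in proximal tubule cells most members are apart at far lower levels than in fibroblasts, such as 3.48 to 5.68 CPM of Col1a1 in DOCA-salt mice.

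The cells behind these values were not of the same kind in the groups. Fibroblasts formed 5 clusters, which are named here by leading genes other than the members. The cluster led by Sfrp4, Lum and Pi16 held 21, 3 and 7 of the sham fibroblasts and 17, 19 and 21 of those of DOCA-salt mice. The other 4 clusters held 1, 3 and 2 sham cells and 200, 278 and 285 cells of DOCA-salt mice. The 12 fibroblast markers used for naming summed to 32436, 6280.3 and 11843 CPM in sham fibroblasts and to 6045, 5871 and 5436 CPM in DOCA-salt fibroblasts. The 6 fibroblasts of sham 2 also carried 1140.0 CPM of the 10 macrophage markers, against 0 to 97.9 CPM in the other mice. The 15 markers of smooth muscle cells and pericytes summed to 592, 1347 and 2817 CPM in sham fibroblasts and 3588, 2934 and 3996 CPM in DOCA-salt fibroblasts. The 13 endothelial markers summed to 94.0, 415 and 115 CPM against 631, 885 and 668 CPM, and the 7 markers of the distal convoluted and connecting tubule to 395, 560 and 395 CPM against 943, 1025 and 1303 CPM, also without overlap. The part of these differences in the fibroblast results was not tested beyond the cluster that follows.

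Within the Sfrp4, Lum and Pi16 cluster alone, a comparison chosen after seeing the data, edgeR called 0 of the 10 members, against 0.277% of 3965 genes higher and 0.151% lower, and left out sham 2, which had 3 cells there. At an unadjusted p below 0.05 there were 3 members, beside 10.1% of all genes tested, Col5a2 (log2 fold change 1.37, adjusted p = 0.152), Col6a3 (1.17, adjusted p = 0.254) and Col12a1 (1.43, adjusted p = 0.421). Col12a1 gave 15, 0 and 0 UMIs in the sham cells of this cluster, or 143, 0 and 0 CPM, against 327, 247 and 234 CPM in DOCA-salt mice. Col5a2 stood at 210, 347 and 179 CPM against 609, 493 and 595 CPM. Col3a1 stood at 6314, 2199 and 4593 CPM against 7487, 6743 and 8540.3 CPM. The groups did not overlap for Col3a1, Col5a1, Col5a2, Col12a1 and Col14a1 in this cluster, but the sham values of sham 2 rest on 3 cells. The share of all genes without overlap in these cells was not counted, so this list is a description only.

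Among the fibroblasts of DOCA-salt mice, the members divided the clusters in different ways. These levels are a description with no test, as the cells were sorted into clusters by their own genes. Collagen I and III chains were highest in the Sfrp4, Lum and Pi16 cluster, with Col1a1 at 5541 ± 1047 CPM and Col3a1 at 7590 ± 903 CPM (SD, n = 3), and lay within narrow ranges in the other 4, at 2209 to 2629 and 2437 to 3018 CPM. Col5a1 was also highest there, at 410 ± 80.3 CPM, and stood at 141 to 217 CPM elsewhere.

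Col12a1 had another order. It was highest in the cluster led by Csmd1 and Cck (811 ± 189 CPM) and in that led by Cck and Mgp (809 ± 217 CPM). It stood at 496 ± 58.8 CPM in the cluster led by Timp1 and Nkd2. The lowest levels were in the Sfrp4 cluster (269 ± 50.5 CPM) and in that led by Fbln5, Hsd11b1 and Cxcl12 (211 ± 45.9 CPM). Col12a1 itself was among the first 10 leading genes of the Csmd1 cluster and of the Cck and Mgp cluster. Its high level there is thus not separate information. Col3a1 and Col14a1 were likewise among the leading genes of the Sfrp4 and Fbln5 clusters. The upper and the lower pair of clusters did not overlap over the mice, and within each pair the spread covered the difference. Col14a1 had a different order, with 1097 ± 77.6 CPM in the Sfrp4 cluster, 973 ± 96.1 CPM in the Fbln5 cluster, 428 ± 94.4 CPM in the Cck and Mgp cluster, 366 ± 30.0 CPM in the Csmd1 cluster and 163 ± 8.74 CPM in the Timp1 cluster. Col6a1 and Col6a2 were also highest in the Sfrp4 and Fbln5 clusters, at 687 and 652 CPM of Col6a1 in the Sfrp4 and Fbln5 clusters and 222 to 260 CPM in the other 3. Col5a2 was high in the Sfrp4 and Timp1 clusters (566 and 526 CPM) and lowest in the Fbln5 cluster (261 CPM).

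**Figure D4:**
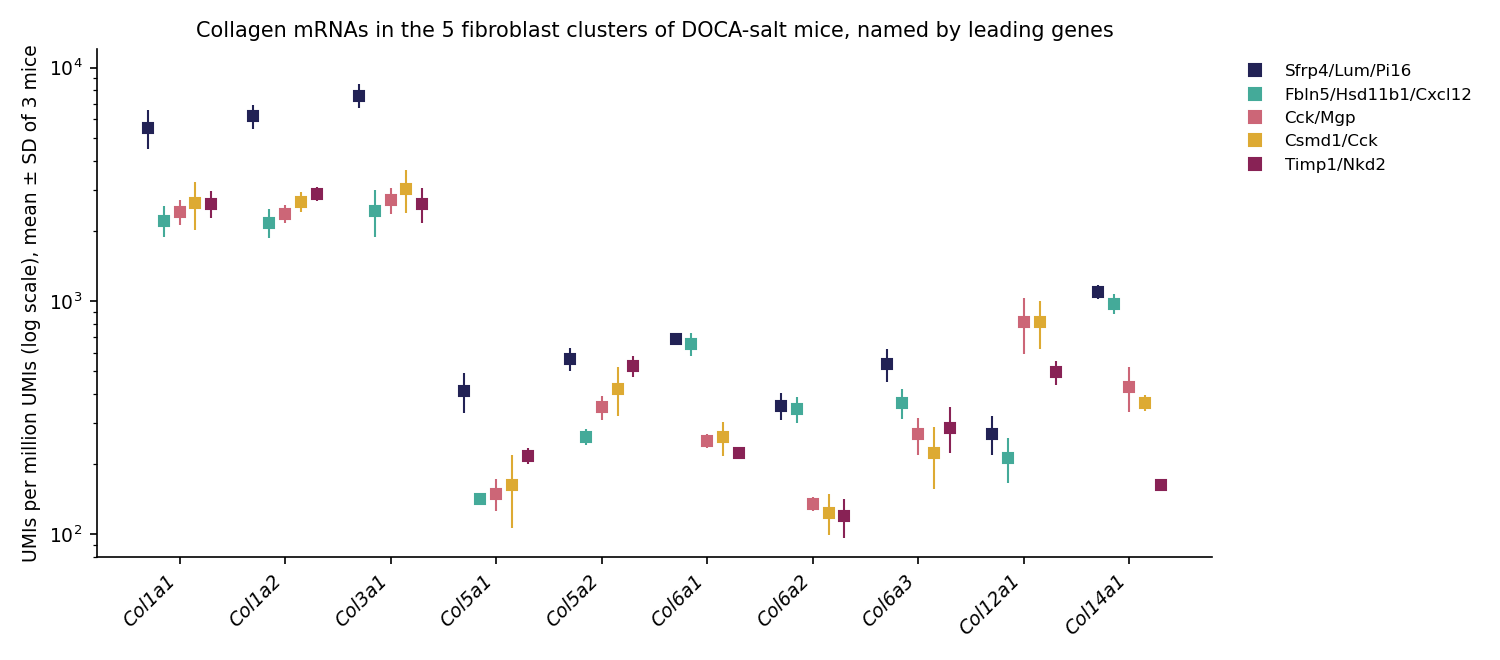
Level of each collagen gene in the 5 fibroblast clusters of the 3 DOCA-salt mice, in CPM on a log axis, as mean ± SD over mice; colors mark clusters by their leading genes. Col12a1 and Col14a1 order the clusters differently: the Timp1 cluster is lowest for Col14a1 at 163 CPM and the Fbln5 cluster is lowest for Col12a1 at 211 CPM.

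The mix of collagens within fibroblasts, each member's share of their 10 summed, compares the members with each other whatever the number of cells. Col12a1 made up 0.716%, 0.604% and 0% of the mix in sham and 3.88%, 4.72% and 5.98% in DOCA-salt mice. Col5a2 made up 1.05%, 1.51% and 1.27% against 3.87%, 3.72% and 3.71%, and Col6a1 made up 4.82%, 5.44% and 5.49% against 3.12%, 3.85% and 3.16%. These 3 members did not overlap between the groups (exact two-sided permutation p = 0.1 for each, the smallest possible), and the other 7 did. The mix was taken over the members only, so no share of all genes stands beside this count. Within the Sfrp4, Lum and Pi16 cluster alone, where sham 2 had 3 cells, the Col5a2 share overlapped, at 2.53% ± 2.22 in sham and 2.45% ± 0.329 in DOCA-salt mice (SD, n = 3 each), and those of Col12a1 and Col6a1 did not. The log2 ratio of Col5a1 to Col5a2 in fibroblasts was 0.30, 0.85 and 0.64 in sham and -1.19, -1.09 and -1.08 in DOCA-salt mice. Within that cluster it overlapped, at 0.04 ± 0.55 in sham and -0.48 ± 0.30 in DOCA-salt mice. The ratio of Col1a1 to Col1a2, chains that are joined 2 to 1 in the protein, was 0.14 ± 0.32 in sham and -0.07 ± 0.13 in DOCA-salt mice on the log2 scale (SD, n = 3), near equal numbers of UMIs.

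Counted as cells with at least 1 UMI after thinning to 1000 UMIs per cell, Col12a1 was found in 4.68%, 2.95% and 0% of sham fibroblasts and in 29.6%, 28.6% and 37.1% of those of DOCA-salt mice. Without thinning the shares were 9.09%, 33.3% and 0% against 75.1%, 76.1% and 76.8%. In proximal tubule cells, the background class, the thinned share of Col12a1 was 0.406%, 0.328% and 0.386% in sham and 0.390%, 0.480% and 0.390% in DOCA-salt mice. Col5a2 was found in 12.1%, 5.92% and 12.2% of sham and 33.6%, 28.4% and 31.4% of DOCA-salt fibroblasts after thinning. Col1a1 was found in 90.0%, 80.1% and 95.0% of sham and 85.2%, 80.8% and 84.1% of DOCA-salt fibroblasts, with overlap. Median depths were 4141 UMIs in sham and 11341.5 UMIs in DOCA-salt fibroblasts, and 8273 and 9033 UMIs in proximal tubule cells. Thinning left out 2 sham and 5 DOCA-salt fibroblasts, and 1689 and 1207 proximal tubule cells.

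Smooth muscle cells and pericytes, the contractile cells of vessel walls and capillaries, held 414, 379.8 and 375 CPM of the 10 members together in sham and 883, 583 and 1493 CPM in DOCA-salt mice. In fibroblasts this sum was 19676, 6861 and 11695 CPM against 11853, 9969 and 11151 CPM. Of 7 members tested, 3 were called higher, Col1a1, Col3a1 and Col6a3, against 0.814% of 7006 genes higher and 0.599% lower (edgeR), and Col5a1, Col6a2 and Col14a1 had too few UMIs for the test. Col3a1 stood at 115, 80.5 and 73.2 CPM in sham and 321, 160 and 485 CPM in DOCA-salt mice (log2 fold change 1.80, SE 0.30, adjusted p = 0.00505). Col6a3 stood at 35.6, 55.7 and 41.1 CPM against 168, 86.8 and 218 CPM (1.79, SE 0.30, adjusted p = 0.00505), and Col1a1 at 21.8, 24.8 and 50.3 CPM against 94.2, 58.9 and 220.1 CPM (1.91, SE 0.41, adjusted p = 0.026). These groups did not overlap, and DOCA-salt 2 was the lowest DOCA-salt mouse for all 3 genes. The call of Col1a1 was lost in DESeq2 and without sham 1 or DOCA-salt 3. The count of members called higher was 7 at the 20% mitochondrial limit, 7 without doublet removal, 8 at Leiden resolution 2 and 10 with cells chosen by markers. The share of all genes called at these settings is not reported here. Cells chosen by markers were also not the same cells, with 133, 144 and 133 in DOCA-salt mice against 72, 83 and 65 by cluster. These counts are therefore not stronger support than the main one.

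The cluster led by Ren1, Cnn1 and Acta2, genes of renin and smooth muscle cells, carried most of this. Its Col3a1 level was 185, 131 and 149 CPM in sham and 547, 246 and 991 CPM in DOCA-salt mice. The cluster led by Tenm2 and Ndufa4l2 stood at 10.5, 25.1 and 11.3 CPM against 41.4, 50.9 and 50.0 CPM. Fibroblast markers in the class of smooth muscle cells and pericytes summed to 667, 757 and 615 CPM in sham and 938, 782 and 1109 CPM in DOCA-salt mice, without overlap. Other marker sets moved without overlap too. Those of macrophages rose from 35.6, 14.4 and 16.0 to 174, 74.4 and 82.8 CPM, and those of cycling cells from 3.96, 4.13 and 11.4 to 12.9, 23.3 and 72.7 CPM. Those of the proximal tubule fell from 3012, 1981 and 4163 to 1058, 1347 and 1480 CPM. Their part in the result was not tested.

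Endothelial cells showed 3 members higher, Col1a1, Col1a2 and Col3a1, and 1 lower, Col12a1, of 8 tested, against 6.62% of 12810 genes higher and 4.64% lower (edgeR). Col12a1 stood at 101, 61.1 and 70.9 CPM in sham and 21.9, 23.7 and 20.5 CPM in DOCA-salt mice. The groups were far apart, and the gene fell by 1.81 on the log2 scale (SE 0.18, adjusted p = 0.000313). Among sham classes this was the highest mean level of Col12a1, with fibroblasts at 60.8 ± 72.4 CPM and endothelial cells at 77.7 ± 20.9 CPM (SD, n = 3), so the order of the highest 2 did not exceed the spread.

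Most endothelial Col12a1 lay in the cluster led by Cldn5, Sox17 and Samd12. There the level was 153, 96.9 and 97.5 CPM in sham and 57.7, 83.3 and 67.4 CPM in DOCA-salt mice, still without overlap but with a narrower gap. This cluster held 225, 209 and 260 cells in sham and 150, 140 and 151 in DOCA-salt mice. The cluster led by Fabp4, Flt1 and Plvap, genes of capillary endothelium, held 272, 292 and 237 cells in sham and 437, 580 and 559 in DOCA-salt mice, with 1.07 to 3.92 CPM of Col12a1 per mouse. The part of this change in cell numbers in the fall of Col12a1 was not tested.

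The 3 members that rose in endothelial cells did so from almost no UMIs. Col1a1, Col1a2 and Col3a1 had too few sham UMIs for the low-count filter and passed it through the DOCA-salt mice. A call of higher was thus the only one open to them. Col1a1 had 2, 0 and 0 UMIs in the endothelial cells of the sham mice and 27, 32 and 56 in those of the DOCA-salt mice (adjusted p = 0.00257). Col3a1 had 4, 0 and 1 UMIs against 61, 48 and 71 (adjusted p = 0.00105), and Col1a2 had 3, 3 and 10 against 42, 27 and 44 (adjusted p = 0.0264). The call of Col1a2 was lost without sham 1, DOCA-salt 1 or DOCA-salt 3. The count of members called higher was 7 at the 20% mitochondrial limit and 8 without doublet removal, where the share of all genes called is not reported here. In DOCA-salt mice Col1a1 then stood at 5.06, 4.44 and 9.83 CPM in endothelial cells, beside 3.48, 4.37 and 5.68 CPM in proximal tubule cells. The difference between these classes in the change of Col1a1 was 0.83 on the log2 scale and did not pass the test (SE 0.98, adjusted p = 0.652). In endothelial cells the 12 fibroblast markers summed to 241, 219 and 303 CPM in sham and 199, 169 and 160 CPM in DOCA-salt mice, lower without overlap. The 15 markers of smooth muscle cells and pericytes overlapped, at 199, 188 and 157 against 372, 154 and 294 CPM. Those of macrophages (17.6 ± 2.84 against 36.2 ± 1.91 CPM), dendritic cells (113 ± 14.9 against 239 ± 14.9 CPM) and cycling cells (20.7 ± 19.5 against 172 ± 35.2 CPM) were higher without overlap (SD, n = 3 each), and the part of these markers in the endothelial results was not tested. Col5a2 was 48.3, 54.9 and 55.0 CPM in sham and 48.1, 32.9 and 22.1 CPM in DOCA-salt endothelial cells (adjusted p = 0.122).

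Col14a1 was the most abundant member in macrophages. It stood at 94.1, 62.6 and 70.9 CPM in sham macrophages and 63.3, 45.5 and 58.6 CPM in those of DOCA-salt mice, with overlap. It was the only member tested and was not called (log2 fold change -0.60, SE 0.19, unadjusted p = 0.00701, adjusted p = 0.0901, edgeR). By this test 2.53% of 9295 genes were called higher and 3.06% lower. DESeq2 did not call Col14a1 either. Of the other 9 members, Col5a2 gave 1, 1 and 0 UMIs and the remaining 8 gave 0 UMIs in the macrophages of the sham mice, which allows up to 1.68 CPM each over the 3 mice. In DOCA-salt mice macrophages held 3.90, 8.60 and 6.15 CPM of Col1a1. Macrophages themselves made up 1.57% ± 0.201 of cells in sham and 6.29% ± 1.10 in DOCA-salt mice (SD, n = 3, exact two-sided permutation p = 0.1). Their clusters differed between the groups. That led by Ccl4 and Mmp13 held 105, 90 and 103 sham and 17, 15 and 26 DOCA-salt cells. That led by Ptpro and Apoe held 9, 9 and 6 against 171, 220 and 255. The part of this shift in the macrophage results was not tested.

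In proximal tubule cells, which are not known to make fibrillar collagen, 7 of 9 members tested were called higher, against 4.41% of 16200 genes higher and 1.85% lower (edgeR). Of these, 4 were called without DOCA-salt 3, where Col5a1, Col6a1 and Col6a3 were lost. Col6a1 and Col6a3 were also lost without sham 1, Col5a1 and Col6a3 without DOCA-salt 2, and Col6a3 without DOCA-salt 1. Many of the cells lay in different clusters in the groups. The cluster led by Ttr and Gsta2 held 72, 166 and 89 sham and 1823, 1541 and 1803 DOCA-salt cells. That led by Kap and Cndp2 held 1198, 612 and 880 against 63, 59 and 17. The part of this shift in the results, also where this class is the reference, was not tested. The levels were low. All 7 members called had so few sham UMIs that they passed the low-count filter through the DOCA-salt mice. Higher was thus the only call open to these members. Col1a1 stood at 0.397, 0.0868 and 0.234 CPM in sham and 3.48, 4.37 and 5.68 CPM in DOCA-salt mice (log2 fold change 4.11, SE 0.39, adjusted p = 0.00158). Col3a1 stood at 0.446, 0.108 and 0.208 CPM against 3.80, 5.05 and 6.41 CPM (4.18, SE 0.39, adjusted p = 0.00148). The fibroblast level of Col1a1 was 12081, 21256 and 14330 times that of the proximal tubule in sham mice and 844, 526 and 495 times in DOCA-salt mice. The sham ratios rest on few proximal tubule UMIs and on 22, 6 and 9 fibroblasts, so they are rough.

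The remaining tubule cells gave like values, with 6 of 7 members higher against 3.38% of 15560 genes higher and 1.83% lower, such as Col1a1 at 0.415, 0.0667 and 0.162 CPM in sham and 3.64, 4.14 and 6.38 CPM in DOCA-salt mice (log2 fold change 4.32, adjusted p = 0.00174). In these cells Col1a1, Col1a2, Col3a1 and Col6a1 had so few sham UMIs that they passed the low-count filter through the DOCA-salt mice. A call of higher was thus the only one open to them. Without DOCA-salt 3 the calls of Col6a1 and Col14a1 were lost there, that of Col6a1 also without sham 1 and that of Col14a1 also without sham 3. Free RNA in droplets gives UMIs to cells that do not make a gene, and fibroblasts held 0.0940% ± 0.0234 of all UMIs in sham and 3.89% ± 1.14 in DOCA-salt mice (SD, n = 3). The 12 fibroblast markers were higher too, without overlap. They summed to 7.17, 5.16 and 6.64 CPM in sham and 13.1, 17.9 and 17.2 CPM in DOCA-salt proximal tubule cells. For the other tubule cells the sums were 101, 129 and 87.3 against 165, 142 and 176 CPM. In both classes the markers rose by a smaller factor than Col1a1. In proximal tubule cells, endothelial markers (25.4, 12.8 and 22.9 against 29.8, 45.8 and 36.6 CPM) and macrophage markers (68.2, 59.1 and 40.8 against 69.2, 80.9 and 76.5 CPM) also rose without overlap. Those of the thick ascending limb fell without overlap, from 520, 510 and 516 to 431, 450 and 458 CPM. The part of free RNA and of these markers in the low levels was not tested. In DOCA-salt mice, log2 ratios between members were compared in proximal tubule cells and fibroblasts. That of Col3a1 to Col1a1 overlapped, at 0.13, 0.21 and 0.17 against 0.23, 0.15 and 0.09. Those of Col6a3 to Col6a1, Col5a1 to Col5a2 and Col14a1 to Col1a1 overlapped too. That of Col1a1 to Col1a2 did not overlap, at 0.47, 0.11 and 0.82 against -0.04, -0.21 and 0.05. Nor did those of Col6a1 to Col6a2 and of Col12a1 to Col1a1, the latter at 0.19, -0.07 and -0.66 against -2.67, -2.29 and -2.08.

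Col12a1 and Col5a2 were the 2 members tested in the proximal tubule that were not called there. Col12a1 stood at 3.52, 3.10 and 3.99 CPM in the proximal tubule of sham and 3.96, 4.16 and 3.60 CPM in that of DOCA-salt mice (log2 fold change 0.09, SE 0.16, adjusted p = 0.770), and was the most abundant member there in sham mice, at 60.5%, 72.2% and 63.5% of the mix. In the other tubule cells Col12a1 was among the members called higher, at 0.922, 1.60 and 1.41 CPM in sham and 3.73, 3.63 and 3.09 CPM in DOCA-salt mice (log2 fold change 1.48, SE 0.24, adjusted p = 0.0128). Col5a2 in the thick ascending limb stood at 136, 309 and 219 CPM in sham and 119.7, 68.9 and 119.9 CPM in DOCA-salt mice. These groups did not overlap (exact two-sided permutation p = 0.1), and over all tubule cells outside the proximal tubule the difference did not pass the test (log2 fold change -0.68, SE 0.24, adjusted p = 0.149), though without sham 1 or without the filter on low counts it did.

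The Col5a2 of the tubule was set to certain cells. In the thick ascending limb, the cluster led by Slc12a1, Egf and Umod held 143, 327 and 234 CPM in sham and 124, 69.6 and 126 CPM in DOCA-salt mice. In the distal convoluted tubule, the cluster led by Slc12a3 held 74.6, 187 and 143 CPM against 101, 82.7 and 108 CPM, with overlap. The connecting tubule cluster led by S100g held 0.657, 0 and 1.55 CPM against 8.86, 4.16 and 4.05 CPM. Principal cells, intercalated cells and the thin limb stood at 0 to 1.88 CPM in every mouse.

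Col14a1 was found in intercalated cells at 8.05, 4.30 and 4.00 CPM in sham and 13.02, 20.5 and 30.1 CPM in DOCA-salt mice, without overlap. The cluster led by Slc26a4, the pendrin gene of type B cells, held 12.9, 7.54 and 9.20 CPM against 24.2, 39.8 and 54.3 CPM, and that led by Aqp6 and Slc4a1, genes of type A cells, held 2.84, 0 and 0.732 CPM against 3.67, 6.38 and 15.2 CPM. In the proximal tubule of the same mice Col14a1 stood at 0.0782 to 0.182 and at 0.538 to 1.11 CPM.

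The change in each class was set against that in proximal tubule cells of the same mice, in a model with both classes. Most members rose in the proximal tubule from low levels, such as Col1a1 by 4.11 on the log2 scale. A class whose own change was not called can therefore show a large negative difference. Col1a1 in fibroblasts, for example, changed by -0.36 in the class and gave -4.35 here. A lower change is thus not by itself a fall within the class. In fibroblasts, the change of 2 members was higher than in the proximal tubule, Col12a1 (by 2.77 on the log2 scale, SE 0.40, adjusted p = 8.04e-06) and Col5a2 (by 1.21, SE 0.36, adjusted p = 0.0481), and that of the other 8 was lower. Over 16348 genes 1.53% were higher and 1.85% lower in this test (edgeR). The 8 lower members ran from -2.53 (Col6a3) to -4.51 (Col3a1). DESeq2 kept the 8 lower members and called neither Col12a1 nor Col5a2. The call of Col5a2 was also lost with DESeq2 size factors, with library size only, without doublet removal, and without sham 2, sham 3, DOCA-salt 1 or DOCA-salt 3. Among the lower members, Col6a3 was lost without sham 1 or sham 2 and at the 20% mitochondrial limit, and Col6a2 without sham 1.

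In smooth muscle cells and pericytes, the change of 5 members was lower than in the proximal tubule, against 1.74% of 15958 genes lower and 0.526% higher. These were Col1a1, Col1a2, Col3a1, Col6a1 and Col14a1, of which only Col1a2 was called lower at the 20% mitochondrial limit, and Col14a1 was not called by DESeq2. The call of Col6a1 was lost without sham 1, sham 2 or DOCA-salt 2, and that of Col14a1 without sham 1 or DOCA-salt 2.

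In endothelial cells the change was lower for 3, Col5a1, Col12a1 and Col14a1, against 6.80% of 17213 genes lower and 5.30% higher. The calls of Col5a1 and Col14a1 were lost at the 20% mitochondrial limit and without doublet removal, where the log2 difference of Col14a1 turned from -3.08 to 0.16 and 0.51. The call of Col5a1 was also lost without sham 2, sham 3, DOCA-salt 2 or DOCA-salt 3. In macrophages it was lower for Col14a1, by a log2 difference of -3.18 (SE 0.43, adjusted p = 1.28e-09), against 2.81% of 16378 genes lower and 3.66% higher. The change of Col14a1 within macrophages was -0.60 and was not called. In all stromal cells 2 members were higher, Col12a1 (3.54, SE 0.30, adjusted p = 4.53e-08) and Col5a2 (2.56, SE 0.28, adjusted p = 1.37e-06), and 5 were lower, Col1a1, Col1a2, Col3a1, Col6a1 and Col6a2, against 10.1% of 16977 genes higher and 7.96% lower. Col6a2 (-1.61, adjusted p = 0.0497) was not called by DESeq2, at the 20% mitochondrial limit, at Leiden resolution 2, or without sham 1, sham 3, DOCA-salt 2 or DOCA-salt 3. Without sham 1 the call of Col6a1 was lost too and Col5a1 was called lower.

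**Figure D5:**
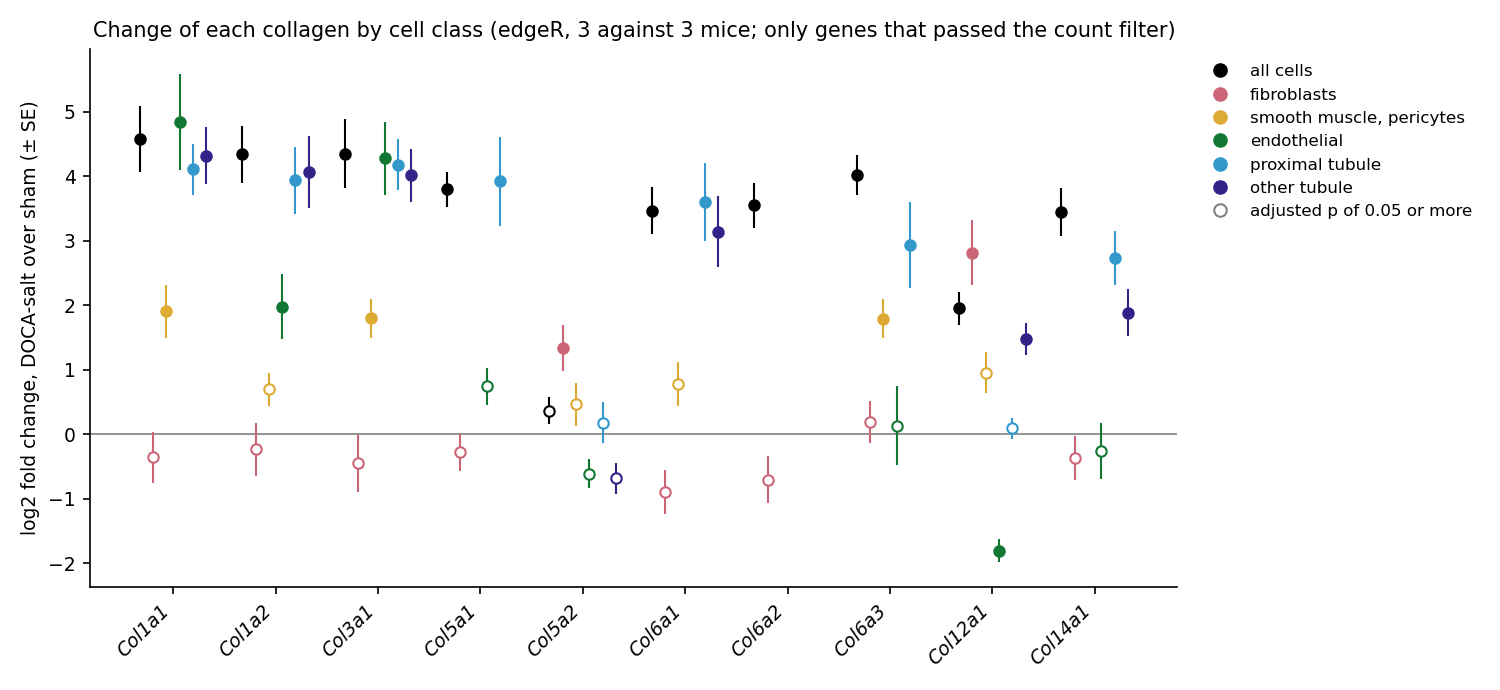
Log2 fold change of each collagen gene, DOCA-salt over sham, in all cells and in 5 classes (edgeR), as the estimate ± its standard error; filled symbols mark an adjusted p below 0.05 and open symbols a higher one, and genes with too few UMIs are not drawn. Col12a1 is higher in fibroblasts at 2.82 and lower in endothelial cells at -1.81, while the collagen I and III chains lie near 0 in fibroblasts.

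Genes that work on collagens were counted from lists chosen by role. Of 29 genes for modification, folding and cross-linking, 14 rose in whole kidneys and their median log2 fold change was 0.57, beside 11.5% higher, 5.69% lower and a median of -0.02 for all genes. Adamts2, which cuts the amino-terminal propeptide off fibrillar collagens, rose by 3.61 (SE 0.43, adjusted p = 0.00142). The lysyl oxidase genes Loxl2, Loxl1 and Lox, whose enzymes cross-link fibrils, rose by 3.14, 3.05 and 2.47 (adjusted p = 0.00099, 0.000251 and 0.00041). Fkbp10, a chaperone of procollagen, rose by 2.21 and Bmp1, which removes the carboxy-terminal propeptide, by 2.19.

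Of 14 matrix proteins that bind collagen, 12 rose (median 1.89), against the same 11.5% of all genes. They included fibronectin Fn1 at 3.63, the small proteoglycans Bgn, Lum and Dcn at 3.40, 3.19 and 2.91, Postn at 2.92 and Sparc at 2.19. Dcn and Lum were also among the markers that named fibroblasts. Of 9 receptors and uptake genes tested, 5 rose (median 0.61): the collagen uptake receptor Mrc2 by 3.53, the collagen-sensing kinase Ddr2 by 3.08, the immune receptor Lair1 by 2.26 and the integrin chains Itga11 by 1.92 and Itga1 by 0.51. Of 27 other collagens tested, 11 rose and 1 fell (median 0.24). Col15a1 rose by 3.79, Col8a2 by 3.53, Col28a1 by 3.45, Col11a1, a fibrillar chain, by 2.08 and Col16a1 by 1.70, and Col26a1 fell by 3.04.

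In stromal cells 19 of 25 modification genes rose and 1 fell, with Loxl2 at 3.31, Loxl1 at 1.80, Lox at 1.77 and Bmp1 at 1.73, against 14.9% of all genes higher and 13.3% lower in these cells. The share of fibroblasts among the stromal cells moved with these counts too, from 22 of 98, 6 of 98 and 9 of 103 to 217 of 289, 297 of 380 and 306 of 371, and its part was not tested. Of the other collagens there, 9 of 19 rose and 5 fell, with Col28a1 at 7.38, Col8a2 at 4.06, Col8a1 at 4.03 and Col15a1 at 3.82. Among receptors, 4 of 7 rose and 1 fell, with Itga11 at 3.64, Mrc2 at 3.09, Itga10 at -1.15 and Itga1 at 0.95. Among binding proteins, 5 of 14 rose and 1 fell, with Thbs2 at 3.68, Thbs1 at 3.50, Fn1 at 2.81 and Bgn at 2.14.

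In fibroblasts, 1 of 24 modification genes tested was called (edgeR), Pcolce2, an enhancer of propeptide removal, which fell by 2.97. Binding proteins split, with 3 of 14 higher and 8 lower (median -1.79), against 1.63% of all genes higher and 1.53% lower. Dpt fell by 3.52, Tgfbi by 2.51, Tnxb by 2.37 and Fmod by 2.37. Dpt and Lum were among the naming markers. The 3 that rose, named after their values were seen, were Thbs1 at 2.08, Thbs2 at 1.85 and Fn1 at 1.40. Of 13 other collagens, Col18a1 and Col8a1 rose by 2.01 and 1.87 and Col4a5 fell by 2.03. Of 6 receptor genes tested 0 were called by edgeR, and 1 had an unadjusted p below 0.05, Mrc2 (log2 fold change 0.98, adjusted p = 0.120).

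Across 90 sums, each a class in a mouse with at least 10 cells, the genes whose log2 level lay nearest the mean of the 10 members were Prelp (Pearson r = 0.957), Prrx1 (0.952), Serping1 (0.947), Tcf21 (0.946), Cygb (0.945), Adamts2 (0.945), Scn7a (0.944), B3gnt9 (0.927), Ddr2 (0.926) and Dact1 (0.925), of 16757 genes ranked. The sums share mice, libraries and depth, so the values are a description. Serping1 was also among the markers that named fibroblasts. With a pseudocount of 5 in place of 1, 7 of these 10 genes stayed among the first 10. Among the members themselves, Col1a2 lay nearest the mean of the other 9 (r = 0.948), and Col14a1 (0.591), Col5a2 (0.597) and Col12a1 (0.832) farthest from it.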

How the data were processed

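Kidney cells of 3 sham and 3 DOCA-salt mice were profiled with 10x 3′ v3.1 libraries. The authors deposited raw UMI counts per gene and barcode for each mouse. The submitters' processing notes name Cell Ranger 9.0.0, Seurat 4.0.0 and R 4.0.3, while the file headers name cellranger 8.0.1, and the strand setting of the counting is not given in the sources used here. The 10 members and all gene lists were chosen with earlier results of these data known.

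Barcodes with at most 50% mitochondrial UMIs and at most 5% hemoglobin UMIs were kept (60561), and 4931 doublets were removed at a rate of 0.8% per 1000 barcodes. Cells were clustered with scanpy 1.11.5 from 2000 variable genes without collagens, 30 components, 15 neighbors and Leiden resolution 1. Of 51 clusters, 6 stayed unnamed. Naming needed at least 3 detected markers, and its score thresholds of 2 and 0.5 were set after seeing the data. Counts were summed per class and mouse with at least 5 cells and tested with edgeR 4.0.16 (quasi-likelihood, Benjamini-Hochberg over all genes tested, threshold 0.05), with DESeq2 1.42.0 as an alternative. The test scripts were checked on simulated data. Single values were compared by exact two-sided permutation. Libraries held 93172739 to 137819127 UMIs. A count of 0 was given an upper limit of 3 UMIs, which covers counting error only.

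Besides the members, the genes named were, per list, up to 6 of largest change called in whole kidneys and up to 4 called in stromal cells or fibroblasts, the 10 genes of most like pattern (sums with at least 200 UMIs per gene, pseudocount 1), and leading genes of clusters. Clusters of other classes are also named by leading genes, of which some are not reported here. Alternatives covered scaling, filters, the mitochondrial limit, doublets, resolution, cells chosen by markers (at least 3 markers of the class detected, and more than of any other class), the replicate block and each mouse left out.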

Additional observations from a re-analysis of the deposited data

Results flagged for a closer look

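The change of a member between the groups differed from its change in the proximal tubule of the same mice in 26 cases (edgeR quasi-likelihood test of the difference, adjusted p below 0.05). The values that follow are log2 differences of the changes. A negative value can arise from a rise in the proximal tubule alone, without a called change in the class. In stromal cells they were -1.90 for Col1a1, -1.83 for Col1a2, -2.19 for Col3a1, 2.56 for Col5a2, -2.12 for Col6a1, -1.61 for Col6a2 and 3.54 for Col12a1. In fibroblasts they were -4.35 for Col1a1, -4.11 for Col1a2, -4.51 for Col3a1, -3.90 for Col5a1, 1.21 for Col5a2, -4.32 for Col6a1, -3.70 for Col6a2, -2.53 for Col6a3, 2.77 for Col12a1 and -2.96 for Col14a1. In smooth muscle cells and pericytes they were -2.32 for Col1a1, -3.29 for Col1a2, -2.50 for Col3a1, -2.84 for Col6a1 and -4.63 for Col14a1. The value of Col14a1 rests on 18 sham UMIs that all came from sham 1, and DOCA-salt 3 was the only DOCA-salt mouse with any. In endothelial cells they were -3.13 for Col5a1, -1.91 for Col12a1 and -3.08 for Col14a1, and in macrophages -3.18 for Col14a1.

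In classes that entered no comparison, only members with DOCA-salt levels above all sham levels were picked out. Being higher was thus the condition for a place here, and members that overlapped or went the other way are not listed. The mean level was 7.47 CPM of Col3a1 in T or NK cells, 6.15 CPM of Col1a1 in dendritic cells, 18.4 CPM of Col12a1 in cells without a name, and 13.6 CPM of Col5a2 and 11.8 CPM of Col12a1 in urothelial cells. Urothelial cells numbered 12, 1 and 7 in the sham mice, and sham 2 gave no level there. These differences were not tested.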

How the results depend on the processing

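Counts of members called. The share of all genes called at these settings is not reported here, so the counts are not set against it. In fibroblasts 1 member, Col12a1, was higher with DESeq2 size factors and with the replicate block. Col5a2 was lost in both (edgeR adjusted p = 0.0523 with the block). In the cluster with most sham fibroblasts 0 were higher (mice with at least 5 or 3 cells, chosen after seeing the data), and 1 was lower in DESeq2. Without 1 mouse the higher count ran from 0 to 2 and the lower from 0 to 1. In smooth muscle cells and pericytes 7 were higher at 20% mitochondrial UMIs, 7 without doublet removal, 8 at Leiden resolution 2 and 10 with cells chosen by markers (2 to 4 without 1 mouse). In endothelial cells 7 were higher at 20% and 8 without doublet removal, and 2 lower without the low-count filter (2 to 3 higher and 1 to 2 lower without 1 mouse). Without that filter 3 were higher in macrophages (0 to 1 without 1 mouse) and 1 lower in other tubule cells. With the replicate block 3 were higher in proximal tubule cells (4 to 8 without 1 mouse) and 3 in other tubule cells (4 to 6, with 0 to 1 lower). Same-numbered mice did not deviate together (whole-kidney correlations -0.074, -0.703 and -0.187), while mice of other numbers ran from -0.509 to 0.529. Values this spread cannot decide whether the numbers pair the mice, and the labels do not say.

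Changes against the proximal tubule. In fibroblasts 1 was higher with DESeq2 size factors, 1 with library size only, 1 without doublet removal and 0 in DESeq2 (1 to 2 higher and 6 to 8 lower without 1 mouse). In smooth muscle cells and pericytes 1 was higher and 1 lower at 20%, and 3 lower without doublet removal and 3 at resolution 2 (3 to 5). In endothelial cells 6 were lower without the filter, 1 at 20% and 1 without doublet removal (2 to 4). In macrophages 1 was higher without doublet removal.

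Reversed log2 values were -0.0084 for whole-kidney Col12a1 without fibroblasts and -0.0544 without all stromal cells, and for Col14a1 3.10 in endothelial cells without doublet removal, -13.05 to 5.21 without 1 mouse (5.21 without sham 1) and 0.0413 without doublet removal in the change of smooth muscle cells and pericytes, and 0.16 (20%) and 0.51 (no doublet removal) in that of endothelial cells. The cause was not tested.

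DOCA-salt minus sham, at 20% and without doublet removal, was 4.67 and 2.49 percent of cells for fibroblasts (2.64 to 3.00 without 1 mouse), -0.383 and 0.0307 for smooth muscle cells and pericytes (-0.287 to -0.0745), and 1.26 and 1.34 for the Col5a2 share of the fibroblast mix (2.38 to 2.61). The share of UMIs held moved by 50.6 in fibroblasts without doublet removal (55.8 to 70.3) and by -13.2 in other tubule cells at 20% (-45.2 to -30.6). At 500 UMIs and unthinned, shares of cells differed by 18.3 and 61.9 (Col12a1) and 6.63 and 36.4 (Col5a2) in fibroblasts and by 0.318 and 3.89 (Col1a1) in proximal tubule cells. A minimum of 10 cells was not run for fibroblasts, as 2 sham mice held fewer. Sham fibroblasts, 6 to 22 per mouse, limit every fibroblast value.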
